A study of Mus musculus with 24 samples.

Results

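The GABA system transcripts of the hippocampus were followed in mice labelled Tob-KO and in wild-type mice, before and after contextual fear conditioning. The set held 27 genes, chosen by name from a table of 47593 genes, and comprised subunits of the GABA-A and GABA-B receptors, the enzymes that make and break down GABA, its transporters, the chloride transporters that set the direction of GABA currents, and 2 proteins of the inhibitory postsynapse. All 27 were in the table, and 23 reached 0.2 CPM (read counts scaled to the size of the library) in 2 libraries and were tested. The samples were hippocampi of male mice on a C57BL/6J background, and the study's behavioural work used mice aged 8 to 12 weeks. Constitutive Tob-KO mice and wild-type (WT) mice were either naive or culled at 15 min, 1 h or 3 h after conditioning, in which a tone was paired with a foot shock in a chamber. Each of the 8 groups had 3 mice, each mouse gave 1 poly(A) RNA library, and the sequencing was of bulk tissue. In such tissue fewer cells of a type and less RNA per cell cannot be told apart.

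GABA is the main inhibitory transmitter of the forebrain. Interneurons make it from glutamate with the decarboxylases Gad1 and Gad2, load it into vesicles with Slc32a1, and release it onto GABA-A receptors, which are chloride channels of several subunits, and onto GABA-B receptors, which signal through G proteins. In the hippocampus the alpha 5 subunit is abundant in pyramidal neurons and serves receptors outside the synapse, as does the delta subunit in granule cells. The study also examined the balance of excitation and inhibition in hippocampal slices of these mice, so the question here was whether the transcripts of this system differed between genotypes or moved after conditioning.

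The libraries held 28847989 to 41595972 counts, with a median of 31169386. All 12 markers of hippocampal excitatory neurons were counted in every library, Slc17a7 at 1268 to 1495 CPM. Tob1, the targeted gene, ran against the labels: it was at 33.7 to 44.4 CPM in the 12 WT libraries and at 52.0 to 68.6 CPM in the 12 libraries labelled Tob-KO, a log2 difference of 0.56 ± 0.04 (SE, edgeR quasi-likelihood test, adjusted p = 4.16e-09). Counts per gene show neither whether its reads came from an intact transcript nor whether the genotype labels are swapped, which would reverse every difference between genotypes given here. All directions are those of the labels. Markers of neighbouring tissue varied between libraries. The summed level of 18 choroid plexus markers ran from 207 to 7567 CPM, and all 3 WT libraries at 15 min were among the 10 libraries below 300 CPM. The summed level of 15 striatum and septum markers ran from 276 to 429 CPM, highest in replicate 3 of Tob-KO at 3 h. The mean log2 score of the same list was highest in that library and in replicate 3 of Tob-KO at 15 min. These values are given beside the members they moved with.

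Levels were ranked as CPM per kb of exon, so that genes of different length could be compared, and errors are SD over the 24 libraries. The GABA-B receptor subunit Gabbr1 stood first at 98.9 ± 3.37, and its partner Gabbr2, needed for surface expression and G protein coupling, was at 53.7 ± 2.58. Slc12a5, the neuronal chloride extruder KCC2, came second at 82.1 ± 4.34. Among the GABA-A alpha subunits of the set, Gabra5 led at 58.1 ± 5.22. Gabra3 followed at 21.0 ± 2.78, Gabra4 at 17.6 ± 1.15 and Gabra2 at 13.5 ± 1.17. Gabra6, known from cerebellar granule cells, had 0 to 3 reads in any library and none in 18. Of the beta subunits, Gabrb2 was at 25.7 ± 1.71 and Gabrb1 at 20.6 ± 1.55. The delta subunit Gabrd was at 7.20 ± 0.973, and the gamma subunits Gabrg1 and Gabrg3 were lower, at 3.51 ± 0.462 and 2.51 ± 0.2003.

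The lowest members were subunits found mainly outside the hippocampus. Gabrr2, a rho subunit of the type first described in retina, was at 0.435 ± 0.0948, the theta subunit Gabrq at 0.247 ± 0.153 and the epsilon subunit Gabre at 0.105 ± 0.0678. Gabrr1 had 0 to 9 reads per library, Gabrr3 0 to 8 and the pi subunit Gabrp 0 to 2, so these 3 and Gabra6 were below the filter. With no filter, none of the 4 was called in any comparison. The synthesis enzymes Gad1 and Gad2 were at 48.7 ± 3.69 and 34.9 ± 4.45, and the vesicular transporter Slc32a1 at 32.0 ± 3.88. Abat, the transaminase that breaks GABA down, was at 37.3 ± 2.01, and the glial uptake carrier Slc6a11 (GAT-3) at 27.5 ± 2.85. Nlgn2, the adhesion protein of inhibitory synapses, was at 44.5 ± 2.16 and Gphn, which encodes the scaffold gephyrin, at 19.7 ± 0.968. Slc12a2, the chloride importer NKCC1, was at 12.2 ± 2.45, below Slc12a5.

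The order of these levels was stable between groups. Gabbr1 and Slc12a5 held places 1 and 2 in all 8 groups, and no member's place differed by more than 2 between groups. Neighbours whose ranges over the 24 libraries did not overlap were few. Gabbr1 lay above Slc12a5, Slc12a5 above Gabra5, Gabrd above Gabrg1, and Gabrg3 above Gabrr2, in each case in 24 of 24 libraries. Gabra5 exceeded Gabbr2 in 17 of 24 libraries, Gabra3 exceeded Gabrb1 in 15 and Gabra2 exceeded Slc12a2 in 14, so these neighbours were not separated by their spread. The order depended in part on the length used. With the longest coding transcript in place of all exons, Gad1 moved from place 5 to place 2, Gabrb2 from 11 to 8, Gabra4 from 15 to 12 and Slc32a1 from 9 to 11. Variation between libraries was smallest for Gabbr1 (coefficient of variation 3.40%), Gabbr2 (4.798%), Nlgn2 (4.85%) and Gphn (4.91%). It was largest among tested members for Gabre (64.7%) and Gabrq (62.1%), where counting alone would give 24.7% and 15.2% at the mean read count. Slc12a2 varied by 20.1% with a counting error of 1.52%.

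**Figure D1:**
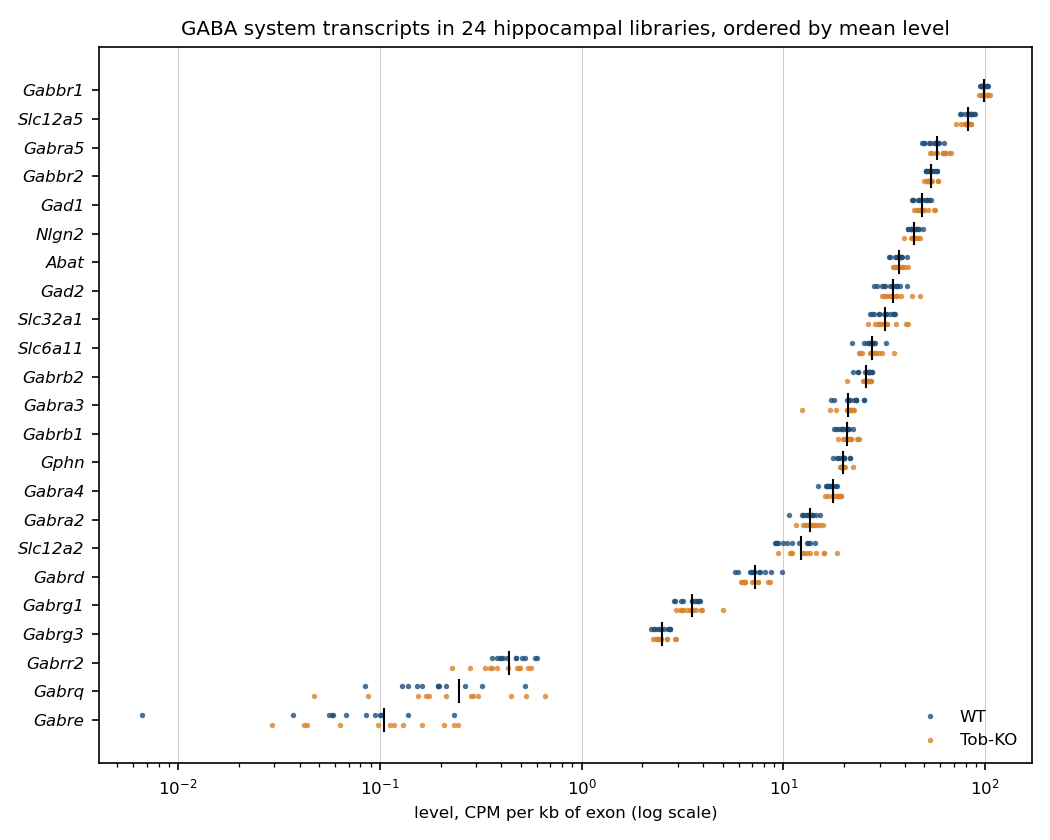
Level of the 23 tested members in CPM per kb of exon on a log axis, each point 1 library, WT above and Tob-KO below within each row, black ticks the mean of 24 libraries. Gabbr1, at a mean of 98.9, and Slc12a5, at 82.1, lie apart from the rest, and Gabrr2, Gabrq and Gabre lie below all others, with the widest spread for Gabrq and Gabre.

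Conditioning was followed by a rise of immediate early genes, which report neuronal activity, in both genotypes. At 15 min against naive mice, 6 of 12 on the list passed the test in WT and 10 of 12 in Tob-KO, all higher, with Fos up by 1.67 and 2.59 on the log2 scale. Between genotypes in naive mice, 0 of 12 passed an adjusted p of 0.05 together with a 2-fold limit, against 0.0218% of all genes. At an unadjusted p under 0.05 were 8 of 12, against 4.04% of all genes. The list median was -0.47. Arc was lower in Tob-KO by a log2 difference of -0.541 (edgeR exact test, adjusted p = 2.1e-05) and Nr4a1 by -0.395 (adjusted p = 0.00103). Fos was lower by -1.11 (edgeR exact test, adjusted p = 0.0696). At 15 min the list median was still -0.30, so the counts per genotype do not rank the responses. The GABA system members did not move in this way. In WT, 0 of 23 passed an adjusted p of 0.05 over the 4 time points (edgeR quasi-likelihood test over 24 libraries, Benjamini-Hochberg adjustment), where 0.569% of the 19500 genes tested did. At an unadjusted p under 0.05 stood 1 of 23, Gad1, against 12.3% of all genes. In Tob-KO, 0 of 23 passed against 1.55% of all genes, and 6 of 23 were at an unadjusted p under 0.05 against 17.2%. Those 6 were Gabrg1, Gabbr2, Gabre, Gabra4, Gabrq and Slc6a11, with adjusted p from 0.162 to 0.252. DESeq2 called 0 of 23 over time in either genotype, beside 379 of 19500 genes in WT and 991 of 19500 in Tob-KO.

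Each time point was then set against naive mice, so that the 3 steps of a genotype share their naive libraries. In WT at 15 min, 0 of 23 members passed against 0.0462% of all genes, and 1 of 23 was at an unadjusted p under 0.05 against 8.71%. At 1 h, 0 of 23 passed against 0.185%, and 0 of 23 were at an unadjusted p under 0.05 against 10.8%. At 3 h, 0 of 23 passed against 0%, and 0 of 23 were at an unadjusted p under 0.05 against 3.99%. The median log2 change of the members was -0.07 at 15 min, 0.03 at 1 h and 0.02 at 3 h, beside 0.00, 0.00 and -0.01 for all genes tested. At 1 h and at 3 h the 95% interval lay within a 1.5-fold change for 20 of 23 members, all but Gabre, Gabrq and Gabrr2, and at 15 min for 19, Slc12a2 being the further exception.

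Gad1, the enzyme of most GABA synthesis, was the one member with an unadjusted p under 0.05 over time in WT. It was at 361, 393 and 356 CPM in naive WT mice, 334, 332 and 336 CPM at 15 min, 386, 411 and 395 CPM at 1 h and 403, 360.1 and 369.8 CPM at 3 h. The 3 mice at 15 min lay within 4 CPM of one another and below all 9 other WT mice. The change from naive at 15 min was -0.15 ± 0.07 on the log2 scale (SE, 95% interval -0.30 to -0.01, adjusted p = 0.569 by edgeR), which did not pass. The striatum and septum sums of these 3 libraries, 276, 323 and 281 CPM, included the lowest of all. With that score as a covariate, chosen after the data were seen, the Gad1 change was -0.08. With the choroid plexus score as a covariate it was -0.18 (edgeR adjusted p = 0.411). Over the 4 time points in WT, Gad1 had an unadjusted p of 0.00826 with the striatum and septum score (edgeR quasi-likelihood test, adjusted p = 0.2).

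In Tob-KO at 15 min, 0 of 23 members passed against 2.51% of all genes, and 3 of 23 were at an unadjusted p under 0.05 against 17.3%. At 1 h, 0 of 23 passed against 1.13%, and 2 of 23 were at an unadjusted p under 0.05 against 15.6%. At 3 h, 0 of 23 passed against 0%, and 4 of 23 were at an unadjusted p under 0.05 against 10.6%. The median log2 change of the members was 0.09 at 15 min, -0.01 at 1 h and 0.09 at 3 h, beside 0.01, -0.01 and -0.01 for all genes. Of the 23, 20 had a positive estimate at 3 h, and these estimates share 1 naive group. The share of positive estimates among all genes is not given here. Without 1 library in turn, the count at an unadjusted p under 0.05 at 3 h ran from 0 to 6 of 23. It was 0 without naive replicate 2, beside 1178 of 19462 genes, and 6 without naive replicate 1, beside 2449 of 19472. Intervals lay within a 1.5-fold change for 19 members at 15 min, 19 at 1 h and 18 at 3 h.

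Gabrg1, a gamma subunit, was the closest to the threshold. It was at 27.2, 24.1 and 23.0 CPM in naive Tob-KO mice and at 28.96, 30.6 and 39.6 CPM at 15 min, so that the groups did not overlap. The change was 0.42 ± 0.12 on the log2 scale (SE, 95% interval 0.17 to 0.67, edgeR adjusted p = 0.0658), and DESeq2 called it at an adjusted p of 0.0247. Without replicate 3 at 15 min the change was 0.27 and the edgeR adjusted p 0.449. In WT, Gabrg1 was at 28.4 ± 1.12 CPM in naive mice and 25.8 ± 3.52 CPM at 15 min (SD, n = 3), with overlap, and the interaction of genotype and time did not pass (edgeR adjusted p = 0.953). The naive Tob-KO mice all lay below the naive WT mice, which were at 27.7, 29.7 and 27.8 CPM. That difference was not at an unadjusted p under 0.05. Later Tob-KO mice were at 27.3, 28.2 and 24.8 CPM at 1 h and 25.014, 26.2 and 30.9 CPM at 3 h.

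Slc6a11, the uptake carrier of astrocytes, had its highest Tob-KO group mean at 15 min. The 3 mice were at 150.2, 146 and 179 CPM against 138, 119 and 135 CPM in naive mice, without overlap, though 1 mouse at 3 h, at 156 CPM, lay among them. The log2 change was 0.28 ± 0.10 (SE, edgeR adjusted p = 0.118). Without 1 library in turn it ran from 0.18 to 0.34, with edgeR adjusted p from 0.0651 to 0.559. With the striatum and septum score as a covariate, chosen after the data were seen, it was 0.18 (edgeR adjusted p = 0.211). Among 10 astrocyte markers, 3 passed at this step in Tob-KO, 2 higher and 1 lower, and their summed level was 5073 to 5549 CPM at 15 min against 5267 to 5328 CPM in naive mice. The part of astrocyte content in the Slc6a11 values was not tested.

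Gabra4 and Gabra3, alpha subunits of neuronal GABA-A receptors, stood higher at the later Tob-KO time points than in naive Tob-KO mice. Gabra4 was at 108, 102 and 98.1 CPM in naive Tob-KO mice, 113, 118 and 117 CPM at 1 h and 112, 113 and 116 CPM at 3 h, and neither later group overlapped with the naive one. The log2 changes were 0.18 ± 0.06 (SE, edgeR adjusted p = 0.122) and 0.14 ± 0.06 (adjusted p = 0.421). Gabra3 differed from naive by 0.32 ± 0.15 at 1 h (SE, adjusted p = 0.289) and 0.34 ± 0.14 at 3 h (adjusted p = 0.427), and its naive Tob-KO values of 71.7, 48.8 and 81.3 CPM included the lowest of all 24 libraries. It was at 81.4, 84.9 and 85.6 CPM at 1 h and 87.3, 85.1 and 83.4 CPM at 3 h, so that neither later group overlapped with the naive one, though the nearest mice lay at 81.3 and 81.4 CPM. Without 1 library in turn the Gabra3 change ran from 0.14 to 0.48 at 1 h (edgeR adjusted p from 0.0983 to 0.72). At 3 h it ran from 0.16 to 0.50 (adjusted p from 0.236 to 0.865). Naive WT mice had 98.2, 69.6 and 90.3 CPM of Gabra3. Gabbr2 at 3 h differed from naive by 0.10 (adjusted p = 0.463), with 391, 392 and 361 CPM against 349.9, 350.1 and 366 CPM. None of these passed the edgeR test.

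The remaining 16 members had an unadjusted p of 0.05 or more at every step in both genotypes. Of these, Gad2, Slc32a1 and Gabra5 are given with the genotypes, and the others by their lowest and highest group means (SD, n = 3). Among receptor subunits, Gabra2 ran from 98.0 ± 2.94 CPM (WT 1 h) to 108 ± 1.44 CPM (Tob-KO naive). The beta subunit Gabrb2 ran from 152 ± 18.1 CPM (Tob-KO naive) to 171 ± 3.57 CPM (WT 3 h), and Gabrb1 ran from 256 ± 11.8 CPM (WT 15 min) to 308 ± 28.4 CPM (Tob-KO 3 h). The extrasynaptic subunit Gabrd ran from 18.7 ± 1.66 CPM (Tob-KO 1 h) to 22.5 ± 2.15 CPM (WT 15 min), and Gabrg3 ran from 28.1 ± 0.910 CPM (WT 15 min) to 31.0 ± 3.20 CPM (Tob-KO 3 h). The GABA-B subunit Gabbr1 ran from 753 ± 16.9 CPM (WT 15 min) to 802 ± 5.37 CPM (Tob-KO 3 h). At the postsynapse, Nlgn2 ran from 247 ± 15.6 CPM (Tob-KO naive) to 266 ± 17.9 CPM (WT 15 min) and Gphn ran from 69.8 ± 3.91 CPM (WT 15 min) to 76.8 ± 3.25 CPM (WT 1 h). The catabolic enzyme Abat ran from 279.7 ± 20.3 CPM (WT 3 h) to 302 ± 18.2 CPM (Tob-KO 15 min), and the chloride extruder Slc12a5 ran from 588 ± 50.8 CPM (Tob-KO naive) to 633 ± 10.6 CPM (WT 3 h). The chloride importer Slc12a2 ran from 103 ± 4.77 CPM (WT 15 min) to 159 ± 41.0 CPM (Tob-KO naive), and the epsilon subunit Gabre ran from 0.213 ± 0.0813 CPM (Tob-KO 1 h) to 0.950 ± 0.173 CPM (Tob-KO 15 min). Gabrr2, with 20 to 44 reads per library, had group means of 0.699 ± 0.289 CPM (Tob-KO 15 min) to 1.03 ± 0.191 CPM (WT naive).

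**Figure D2:**
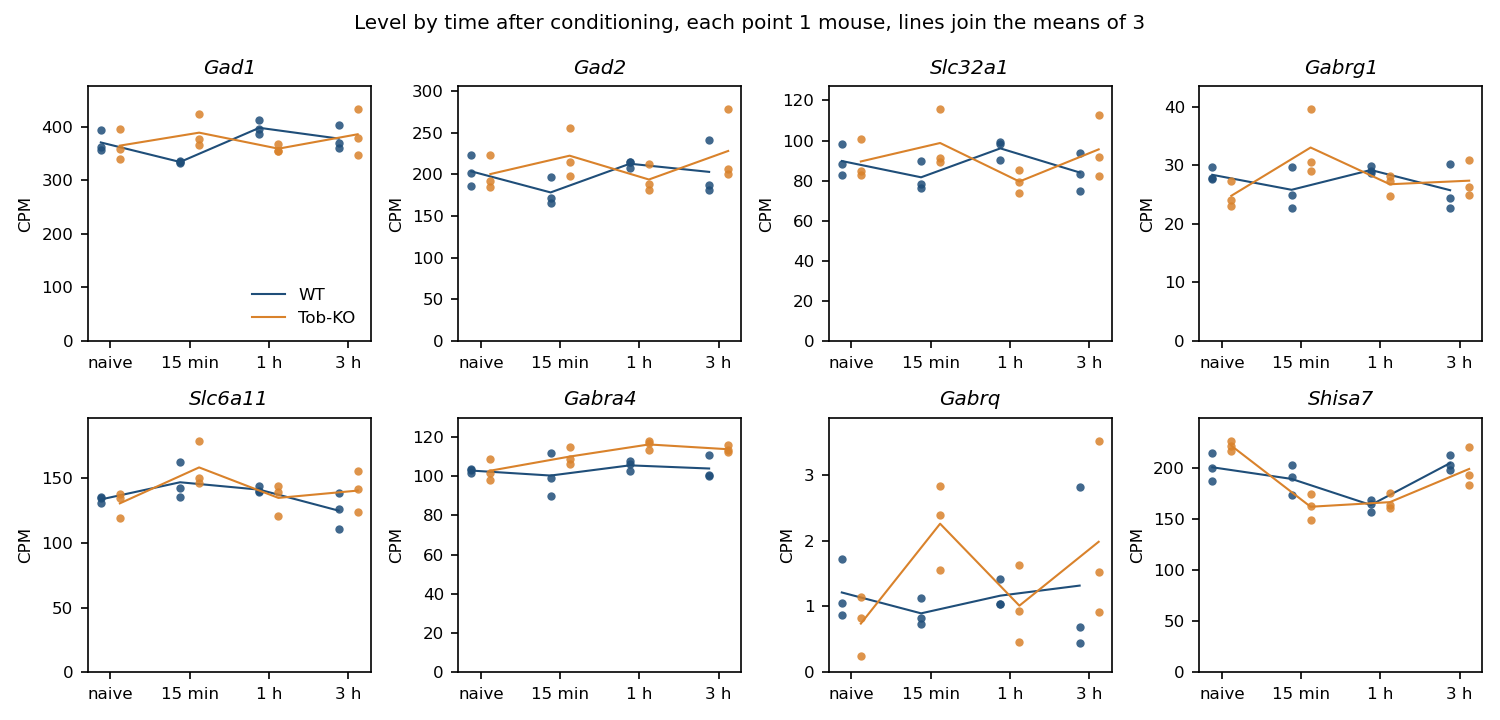
Level in CPM of 7 members and of Shisa7 by time after conditioning, each point 1 mouse, WT blue and Tob-KO orange, lines joining the means of 3 mice and axes starting at 0. The means of Gad1, Gad2 and Slc32a1 lie above WT at 15 min and below it at 1 h in Tob-KO, with no difference past the test, Gabrq spreads widely, and Shisa7 is low at 1 h in both genotypes and at 15 min in Tob-KO.

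Tob-KO and WT mice of the same time point were set against each other by the exact test of edgeR, 3 libraries a side. A gene counted as called where its p and its adjusted p were 0.05 or less and its levels differed 2-fold or more. In naive mice, 0 of 23 members were called against 0.0218% of 18364 genes, and 0 of 23 were at an unadjusted p under 0.05 against 4.04%. At 15 min, 1 of 23 was called against 0.555% of 18364 genes, and 8 of 23 were at an unadjusted p under 0.05 against 8.05%. At 1 h, 0 of 23 were called against 0.033% of 18169 genes, and 5 of 23 were at an unadjusted p under 0.05 against 5.34%. At 3 h, 0 of 23 were called against 0.0274% of 18255 genes, and 1 of 23 was at an unadjusted p under 0.05 against 3.97%. The median log2 difference of the members was -0.03 in naive mice, 0.11 at 15 min, -0.07 at 1 h and 0.07 at 3 h, beside 0.01, -0.01, 0.00 and 0.00 for all genes.

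Gabrq, the theta subunit, which pairs with other subunits in hypothalamus and brainstem and is sparse in hippocampus, was the member called at 15 min. Its level was 0.818, 1.13 and 0.737 CPM in WT and 2.39, 1.55 and 2.83 CPM in Tob-KO, without overlap, from 28, 33 and 23 reads and 72, 55 and 118 reads. The log2 difference was 1.34 ± 0.28 (SE, 95% interval 0.70 to 1.98, edgeR exact test, adjusted p = 0.0100). The call did not hold in every test. The quasi-likelihood test gave an adjusted p of 0.448 with no gene called at all, DESeq2 gave 0.0441, and leaving out 1 library in turn gave log2 differences of 1.13 to 1.56 with adjusted p from 0.000359 to 0.16. It was lost without WT replicate 1 (0.12), WT replicate 3 (0.153) or Tob-KO replicate 3 (0.16). At the other times Gabrq was at 1.71, 0.868 and 1.06 CPM in naive WT and 1.14, 0.251 and 0.827 CPM in naive Tob-KO, with overlap. The WT mice at 1 h had 1.04, 1.04 and 1.42 CPM and the Tob-KO mice 1.63, 0.937 and 0.467 CPM, and those at 3 h 2.81, 0.450 and 0.686 CPM and 1.52, 0.911 and 3.51 CPM, again with overlap. The highest value, 3.51 CPM, was in the Tob-KO library at 3 h with the highest striatum and septum score.

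Gabre, the epsilon subunit, whose gene lies in the same X-linked cluster as Gabrq, also lay higher in Tob-KO at 15 min. The same comparison put Gabra3, whose gene lies between these genes, lower in Tob-KO, by -0.17 ± 0.09 (SE, edgeR exact test, adjusted p = 0.787). Tob-KO mice had 82.8, 67.0 and 87.5 CPM of Gabra3, narrowly below the WT values of 89.7, 90.2 and 87.8 CPM, without overlap. The level of Gabre was 0.175, 0.652 and 0.321 CPM in WT and 0.762, 0.986 and 1.103 CPM in Tob-KO, from 6, 19 and 10 and 23, 35 and 46 reads. The log2 difference was 1.34 ± 0.42 (SE, edgeR exact test, adjusted p = 0.142), and 0.448 by the quasi-likelihood test. Without 1 library in turn the difference ran from 0.98 to 1.96 with adjusted p from 0.00273 to 0.601, and it passed in 1 of 6 such fits, that without WT replicate 2. Across the 24 libraries log2 Gabrq and Gabre were related with Pearson's r = 0.587 (permutation p = 0.00265, adjusted 0.00353) and Spearman's rho = 0.617 (adjusted p = 0.00236). For this pair r was 0.667 once the 2 libraries with the most extreme Gabrq were left out, and 0.438 after the mean of each group was taken off. Gabrq was related to the striatum and septum score with r = 0.729 (permutation p = 6e-05, adjusted 0.00012) and rho = 0.777 (adjusted p = 8e-05). That r was 0.696 without the 2 farthest libraries and 0.698 after the mean of each group was taken off. With this score as a covariate, the change of Gabrq in Tob-KO from naive was 1.05 instead of 1.61 at 15 min and 0.43 instead of 1.43 at 3 h. These are 2 of 4 such relations computed, all chosen after the values were seen, and the part of neighbouring tissue in the Gabrq values at 15 min between genotypes was not tested.

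Slc12a2, the chloride importer, passed the adjusted p but not the limit on the fold change at 15 min. Its level was 108, 101 and 99.7 CPM in WT and 117, 173 and 137 CPM in Tob-KO, without overlap, a log2 difference of 0.47 ± 0.12 (SE, 95% interval 0.21 to 0.74, edgeR exact test, adjusted p = 0.0332). The quasi-likelihood test gave an adjusted p of 0.448. The transporter is also abundant in choroid plexus epithelium. At the same time point 17 of 18 choroid plexus markers were called higher in Tob-KO, and their summed level was 207, 231 and 244 CPM in WT against 296, 5489 and 2241 CPM in Tob-KO. Over all libraries, Slc12a2 was at 99.7 to 121 CPM in the 10 libraries with a choroid plexus sum below 300 CPM, of which 6 were WT and 4 Tob-KO, a limit set after the values were seen. It was at 121 to 201 CPM in the 14 libraries with a sum of 1270 CPM or more, of which 6 were WT and 8 Tob-KO. The adjusted p stayed under 0.05 in 1 of 6 fits that left out 1 library, that without Tob-KO replicate 1, and was 0.0856 to 0.266 in the other 5, with log2 differences of 0.32 to 0.59 over the 6. The part of choroid plexus in the Slc12a2 difference at 15 min was not tested.

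**Figure D3:**
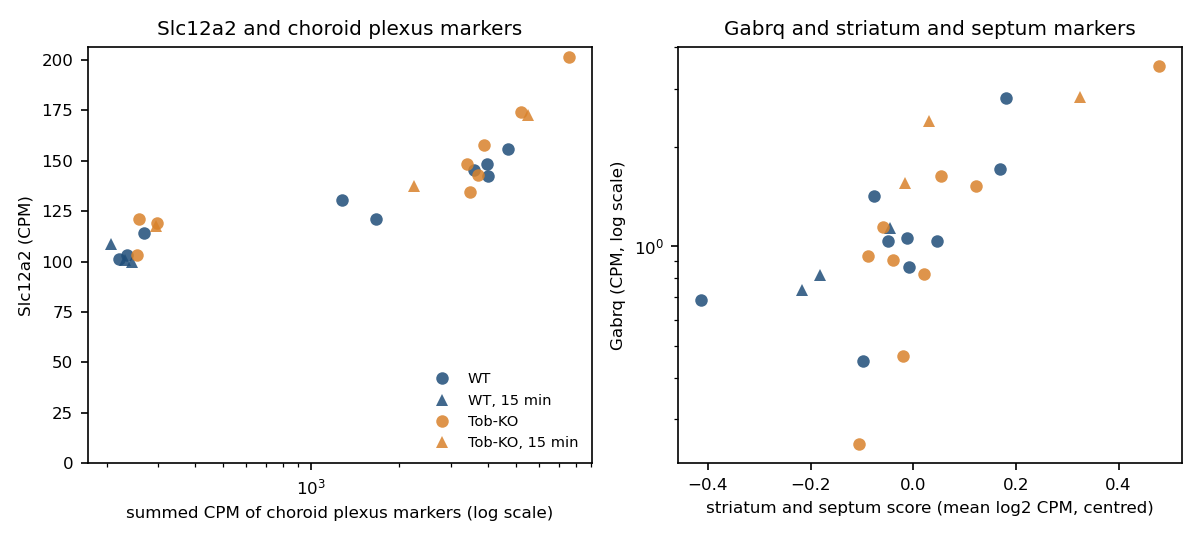
Left, Slc12a2 in CPM against the summed CPM of 18 choroid plexus markers (log axis), and right, Gabrq in CPM (log axis) against the striatum and septum score, each point 1 of 24 libraries, triangles the 15 min libraries, WT blue and Tob-KO orange. Slc12a2 lies at 99.7 to 121 CPM in the 10 libraries with low choroid plexus markers and at 121 to 201 CPM in the others, and Gabrq is higher in libraries with a higher striatum and septum score (r = 0.729).

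The genes that define GABAergic neurons, Gad1, Gad2 and Slc32a1, had estimates of opposite sign at 15 min and 1 h, of which none passed. At 15 min Gad1 was at 334, 332 and 336 CPM in WT and 377, 365 and 424 CPM in Tob-KO, a log2 difference of 0.22 ± 0.07 (SE, adjusted p = 0.246). Gad2 was at 172, 197 and 166 CPM against 198, 214 and 255 CPM, a difference of 0.32 ± 0.10 (adjusted p = 0.195). Neither group pair overlapped, though Gad2 came close, at 197.4 CPM in the highest WT and 197.7 CPM in the lowest Tob-KO library. Slc32a1 was at 78.5, 90.0 and 76.5 CPM against 91.3, 89.4 and 116 CPM, with overlap, a difference of 0.28 ± 0.11 (adjusted p = 0.4). The receptor subunits Gabrg1 and Gabra5 were also at an unadjusted p under 0.05 here. Gabrg1 differed by 0.36 ± 0.14 (adjusted p = 0.373), and its highest WT mouse, at 29.7 CPM, lay above its lowest Tob-KO mouse. Gabra5, at 159, 144 and 174 CPM in WT and 183, 202 and 169 CPM in Tob-KO, differed by 0.22 ± 0.08 (adjusted p = 0.407).

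At 1 h the order was the other way round. Gad1 was at 386, 411 and 395 CPM in WT and 368, 354 and 354 CPM in Tob-KO, without overlap, and differed by -0.15 ± 0.04 (SE, edgeR exact test, adjusted p = 0.466). Slc32a1 was at 90.3, 98.5 and 99.5 CPM against 85.3, 79.5 and 73.9 CPM, without overlap, and differed by -0.27 ± 0.06 (adjusted p = 0.0805). DESeq2 gave Slc32a1 an adjusted p of 0.0439, still under the limit on the fold change. Gad2 differed by -0.13 ± 0.06 (adjusted p = 0.895), with 208, 215 and 215 CPM against 212, 188 and 181 CPM. Slc12a2 differed by 0.24 ± 0.11 (adjusted p = 0.878), with choroid plexus sums of 268 to 3985 CPM in WT and 3472 to 5221 CPM in Tob-KO.

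Tested as such, the interaction of genotype and time passed for 0 of 23 members against 0% of 19500 genes, and 3 of 23 were at an unadjusted p under 0.05 against 4.09%. The 3 were Gad1, Gabrg1 and Slc32a1, each with an adjusted p of 0.953 by edgeR's quasi-likelihood test. Gad1 and Gad2 varied together over the 24 libraries with r = 0.846 (permutation p = 1e-05, adjusted 4e-05) and rho = 0.804 (adjusted p = 8e-05), and with r = 0.814 within groups and 0.753 without the 2 farthest libraries. The 16 markers of interneuron classes gave no call at either time point. At an unadjusted p under 0.05 stood 6 of 16 at 15 min, against 8.05% of all genes, and 2 of 16 at 1 h, against 5.34%. Their median log2 difference was -0.11 at 15 min and -0.02 at 1 h. Their summed level was 994 to 1057 CPM in WT and 920.0 to 969.5 CPM in Tob-KO at 15 min, while the mean log2 score of the same list overlapped between genotypes, at -0.049 to 0.132 in WT and -0.028 to 0.139 in Tob-KO. At 1 h the sums were 929 to 1016 CPM against 894 to 992 CPM. The striatum and septum sum, whose tissue is rich in GABAergic neurons, was 276 to 323 CPM in WT and 316 to 415 CPM in Tob-KO at 15 min, and 329 to 348 CPM against 312 to 349 CPM at 1 h. Among 10 oligodendrocyte markers 0 were called, but 6 of 10 were at an unadjusted p under 0.05 at 15 min and 8 of 10 at 1 h. Their median log2 differences were 0.23 and -0.19. Their sums did not overlap between genotypes and had the same order as Gad1 and Slc32a1. They were 5236 to 6116 CPM in WT and 6434 to 6768 CPM in Tob-KO at 15 min, and 5546 to 6370.4 CPM against 5207 to 5322 CPM at 1 h. The part of either tissue content in the Gad1, Gad2 and Slc32a1 values was not tested.

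The starts of these genes are shown because Gad1, Gad2 and Slc32a1 define the GABAergic neuron and because Gabrq was the member called. Each window runs from 250 bases before to 50 after the RefSeq start site (GRCm38.p6), 5′ to 3′ in the direction of transcription, with capitals marking any match on either strand to the EGR site (GCGNGGGCG), the CRE core (TGACG), the AP-1 site (TGANTCA) or the homeobox core (TAATTA). The windows lie at chr2:70561879-70562178, chr2:22622077-22622376 and chr2:158610508-158610807 on the forward strand for the first 3 genes and at chrX:72824928-72825227 on the forward strand for Gabrq.
Gad1: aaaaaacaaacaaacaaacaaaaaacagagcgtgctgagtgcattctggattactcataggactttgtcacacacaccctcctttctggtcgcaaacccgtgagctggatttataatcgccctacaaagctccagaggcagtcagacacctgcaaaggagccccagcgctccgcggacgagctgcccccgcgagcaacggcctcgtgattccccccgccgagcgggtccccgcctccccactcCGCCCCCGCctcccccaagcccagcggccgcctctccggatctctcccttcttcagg
Gad2: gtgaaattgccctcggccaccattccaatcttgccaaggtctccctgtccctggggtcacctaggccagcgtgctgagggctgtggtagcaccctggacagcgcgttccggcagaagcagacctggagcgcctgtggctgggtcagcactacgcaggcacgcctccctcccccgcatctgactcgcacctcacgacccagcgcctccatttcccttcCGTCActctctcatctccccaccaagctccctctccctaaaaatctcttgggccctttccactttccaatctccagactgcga
Slc32a1: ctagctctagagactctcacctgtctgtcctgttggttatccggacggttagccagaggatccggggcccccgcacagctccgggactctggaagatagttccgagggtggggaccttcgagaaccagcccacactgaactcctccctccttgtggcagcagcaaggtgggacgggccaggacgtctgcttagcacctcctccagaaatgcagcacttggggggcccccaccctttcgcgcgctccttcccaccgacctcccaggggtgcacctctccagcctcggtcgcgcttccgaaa
Gabrq: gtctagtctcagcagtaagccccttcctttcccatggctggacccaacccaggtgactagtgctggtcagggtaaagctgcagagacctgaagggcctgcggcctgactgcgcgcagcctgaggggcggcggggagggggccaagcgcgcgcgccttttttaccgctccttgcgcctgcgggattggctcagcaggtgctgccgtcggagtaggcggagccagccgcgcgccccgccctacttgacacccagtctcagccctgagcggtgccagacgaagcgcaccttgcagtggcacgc
Gad1 holds 1 EGR match and Gad2 1 CRE core, while Slc32a1 and Gabrq hold none of the 4. The 24 members with a match in the table have 29 windows, since some have more than 1 start. Of these 29, 4 hold an EGR match (in Gabrb1, Gabrb2, Gad1 and Gphn), beside 5.55% of 32851 windows of all genes. The CRE core is in 4 of the 29 (Gabrb2, Gabrr1, Gad2 and Nlgn2) beside 20.8% of all windows, the AP-1 site in 1 (Slc12a5) beside 7.81%, and the homeobox core in 1 (Gabrg1) beside 5.29%. A match of letters says nothing about binding.

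Over all time points, 12 Tob-KO and 12 WT libraries were compared with time point as a factor. Of the 23 members, 0 passed against 0.421% of 19500 genes (edgeR quasi-likelihood test), and 4 were at an unadjusted p under 0.05 against 13.5%. For 21 of the 23 the 95% interval lay within a 1.5-fold difference, the exceptions being Gabre and Gabrq. Gabbr1 differed by 0.01 (95% interval -0.03 to 0.06), Gabbr2 by -0.01 (-0.06 to 0.04), Gphn by 0.00 (-0.05 to 0.06) and Nlgn2 by -0.01 (-0.07 to 0.05). Of the synthesis and transport genes, Gad1 differed by 0.02 (-0.06 to 0.09), Gad2 by 0.08 (-0.05 to 0.21), Slc32a1 by 0.05 (-0.08 to 0.17), Slc6a11 by 0.04 (-0.06 to 0.14) and Abat by 0.01 (-0.05 to 0.08). The members' median was 0.02, beside 0.00 for all genes.

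**Figure D4:**
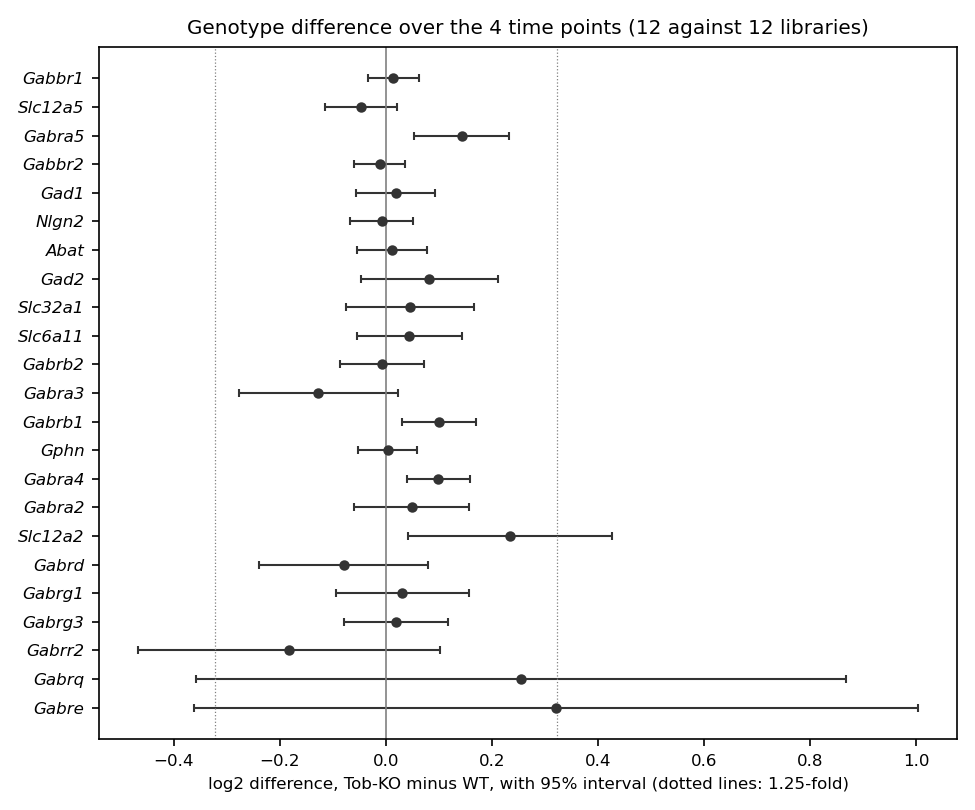
Log2 difference of Tob-KO minus WT over the 4 time points for the 23 tested members, ordered by level, points the estimate and bars the 95% interval from 12 against 12 libraries. The intervals of Gabra5, Gabrb1, Gabra4 and Slc12a2 lie above 0 before adjustment for the 19500 genes tested, and those of Gabre and Gabrq are widest.

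The 4 members below 0.05 unadjusted were all higher in Tob-KO, and 3 of them were GABA-A subunits. Gabra4 ran from 89.9 to 112 CPM (median 103) in WT and from 98.1 to 118 CPM (median 113) in Tob-KO, a log2 difference of 0.10 ± 0.03 (SE, edgeR adjusted p = 0.138). Gabra5 ran from 144 to 187 CPM (median 167) in WT and from 159 to 202 CPM (median 184) in Tob-KO, a difference of 0.14 ± 0.04 (adjusted p = 0.157). Gabrb1 ran from 247 to 306 CPM (median 274) in WT and from 259.5 to 326 CPM (median 294) in Tob-KO, a difference of 0.10 ± 0.03 (adjusted p = 0.196). The ranges of the 12 libraries overlapped for all 3. Gabra4 passed in 1 of 24 fits that left out 1 library, that without WT replicate 1 at 15 min (adjusted p = 0.0304). Slc12a2 ran from 99.7 to 156 CPM (median 118) in WT and from 103 to 201 CPM (median 140.1) in Tob-KO, a difference of 0.23 ± 0.09 (adjusted p = 0.275), which was 0.09 with the choroid plexus score as a covariate.

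Gabra4 and Gabrb1 lie head to head on mouse chromosome 5, Gabra4 on the reverse and Gabrb1 on the forward strand. In GENCODE's annotation of GRCm38 the genes overlap by 196 bp and their exons by 46 bp, where reads of the 2 genes can be told apart only by strand, and the strand setting of the counting is not given in the sources used here. Their RefSeq start sites are 387 bp apart. The windows around them, at chr5:71658259-71658558 on the reverse and chr5:71657671-71657970 on the forward strand, are shown because these starts lie close together. Most of the GENCODE overlap, at chr5:71658113-71658308, lies outside both windows: the Gabra4 window covers only its end and the Gabrb1 window none of it. Capitals mark the same motifs as above.
Gabra4: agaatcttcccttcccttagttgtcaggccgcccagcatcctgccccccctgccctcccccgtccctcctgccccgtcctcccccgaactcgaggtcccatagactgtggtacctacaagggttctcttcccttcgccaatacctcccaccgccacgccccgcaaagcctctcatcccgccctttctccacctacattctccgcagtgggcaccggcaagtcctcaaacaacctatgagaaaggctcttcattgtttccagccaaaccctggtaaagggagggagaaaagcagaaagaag
Gabrb1: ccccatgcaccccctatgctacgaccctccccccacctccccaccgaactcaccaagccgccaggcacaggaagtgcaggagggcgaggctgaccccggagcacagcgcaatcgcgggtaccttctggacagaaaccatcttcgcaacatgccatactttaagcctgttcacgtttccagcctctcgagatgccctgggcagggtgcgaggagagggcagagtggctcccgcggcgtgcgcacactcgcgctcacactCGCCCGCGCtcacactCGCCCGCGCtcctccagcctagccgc
The Gabrb1 window holds 2 EGR matches and the Gabra4 window none of the 4 motifs. Levels of the 2 genes over the 24 libraries were related with r = 0.344 (permutation p = 0.0993) and rho = 0.278 (permutation p = 0.187), and r was -0.11 within groups and 0.21 without the 2 farthest libraries, with no relation past the test. Gabra4 exceeded WT without overlap at 1 h (108, 106 and 102 against 113, 118 and 117 CPM) and at 3 h (101, 99.9 and 111 against 112, 113 and 116 CPM), with log2 differences of 0.14 (edgeR exact test, adjusted p = 0.565) and 0.12 (adjusted p = 1). Exons on the opposite strand also overlap those of Gabra5, Gphn, Slc32a1 and Gabrr3.

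Ratios of paired members, per kb of exon, were compared between genotypes by permutation within time points (100000 permutations, two-sided, 3 ratios). Slc12a5 to Slc12a2, the balance of chloride export and import, was 7.64 ± 1.42 in WT and 6.36 ± 1.37 in Tob-KO (SD, n = 12 each), a log2 difference of -0.27 (permutation p = 0.0427, adjusted 0.128), which did not pass after adjustment. With the choroid plexus score regressed out, the difference was -0.11 (permutation p = 0.0702). Gad1 to Gad2 was 1.43 ± 0.0936 in WT and 1.37 ± 0.0973 in Tob-KO, a difference of -0.06 (permutation p = 0.159, adjusted 0.239). Gabbr2 to Gabbr1 was 0.548 ± 0.0309 and 0.538 ± 0.0271, a difference of -0.03 (permutation p = 0.401).

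Other genes of the pathway were described from a list of 26, of which 25 were tested. They comprise receptor auxiliary subunits and clustering proteins, trafficking factors, uptake carriers of GABA and glutamine, and enzymes of the GABA and glutamine cycle. Over all time points 0 of 25 passed between genotypes, where 0.421% of all genes did, with 8 at an unadjusted p under 0.05 against 13.5% and a median log2 difference of 0.00. At 15 min, 0 of 25 were called between genotypes against 0.555%, with 3 at an unadjusted p under 0.05 against 8.05%. Over time, 1 of 25 passed in Tob-KO against 1.55% of all genes. In WT, 0 of 25 passed against 0.569%, with 3 at an unadjusted p under 0.05 against 12.3%, and DESeq2 called Shisa7 (adjusted p = 0.00875). The gene that passed was Shisa7, which encodes an auxiliary subunit that shapes GABA-A receptor trafficking and kinetics and has been linked to AMPA receptors as well.

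Shisa7 was at 227, 222 and 217 CPM in naive Tob-KO mice and fell to 163, 175 and 149 CPM at 15 min and 176, 161 and 164 CPM at 1 h, neither overlapping with naive. At 3 h it was at 183, 221 and 193 CPM. The log2 changes were -0.45 ± 0.07 at 15 min (SE, 95% interval -0.60 to -0.30, edgeR adjusted p = 0.00329) and -0.41 ± 0.07 at 1 h (adjusted p = 0.0125, and 0.0977 without Tob-KO replicate 2 at 1 h or 0.0894 without naive replicate 1). With only the 6 libraries compared, the 15 min change had an adjusted p of 0.0648. Without replicate 3 of Tob-KO at 15 min and at 3 h, which had the highest striatum and septum scores, it was -0.39 with an adjusted p of 0.0586. In WT, Shisa7 was at 188, 199.8 and 215 CPM in naive mice, 173, 192 and 203 CPM at 15 min, 157, 165 and 169 CPM at 1 h and 198, 213 and 204 CPM at 3 h. The 1 h group did not overlap with the naive one, with a log2 change of -0.29 ± 0.07 (SE, edgeR adjusted p = 0.102, DESeq2 adjusted p = 0.0254). The time courses of the genotypes were not shown to differ (interaction, edgeR adjusted p = 0.953).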

How the data were processed

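RNA sequencing covered 24 hippocampi in 8 groups of 3 mice, grouped by the sample labels. The authors purified poly(A) RNA, made directional libraries, mapped the reads to GRCm38 with STAR 2.6.1d and counted them with HTSeq 0.9.0. They deposited raw counts per gene, whole numbers without normalization. Annotation release, strand setting and multimapping rule are not given in the sources used here. No molecular identifiers are named, so PCR copies of a molecule may count more than once. The p-values of group comparisons set the differences against the spread between these mice. Those of relations across libraries come from shuffling all 24 libraries without regard to the 8 groups.

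Levels are CPM after TMM normalization over 24 libraries, divided between genes by the length of all exons in GENCODE. Genes under 0.2 CPM in all but 1 library were left out. Genotypes of 1 time point were compared by the exact test of edgeR 4.0.16 (R 4.3.3), with the limits of the study's methods, on 6 libraries. Time, the genotype over all time points and the interaction used edgeR's quasi-likelihood test over 24 libraries without a fold limit. SE and intervals come from the quasi-likelihood fit to the same libraries. Adjusted p-values are Benjamini-Hochberg over all genes tested. DESeq2 1.42.0, other normalization, no filter, a replicate block, tissue scores and leaving out each library were alternatives. Ratios used permutation in Python 3.11.15 with NumPy 2.4.6 and pandas 2.3.3. Scripts were tested on simulated data.

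Every member is named, with values where it was called or at an unadjusted p under 0.05. Other listed genes are named where they passed a test or a member's result turned on them. The members, lists and tests were chosen with earlier results of these data known. Libraries of a group differed by more than sampling noise (chi-square per degree of freedom at least 3.68).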

Additional observations from a re-analysis of the deposited data

How the results depend on the processing

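The calls of members rested on few libraries. At 15 min between genotypes, the count of members called was 1, beside 102 of 18364 genes. It became 2 without the fold limit, beside 137 of 18364 genes. With the quasi-likelihood test it was 0, beside 0 of all genes, and with the replicate block 0, beside 6. Without 1 library in turn it ran from 0 to 2. It was 0 without WT replicate 1 (beside 43 of 18135 genes), WT replicate 3 (30 of 18202) or Tob-KO replicate 3 (33 of 18202). It was 2 without WT replicate 2, beside 150 of 18117 genes. From naive to 15 min in Tob-KO it was 0, beside 490 of 19500 genes. It became 1 (Gabrg1) with DESeq2, beside 810 of 19500 genes, and with no filter, beside 479 of 31032. Without 1 library in turn it ran from 0 to 1, and was 1 without Tob-KO replicate 2 at 15 min, beside 817 of 19470 genes. Over all time points between genotypes it was 0, beside 82 of 19500 genes. There it ran from 0 to 1, and was 1 without WT replicate 1 at 15 min, beside 78 of 19453 genes. For the Slc12a5 to Slc12a2 ratio the difference was -0.11 with the choroid plexus score removed and ran from -0.32 to -0.21 without 1 library in turn, with p from 0.0179 to 0.0839. Among 33 results of single genes under 485 alternative fits, 470 kept their side of the threshold, 9 lost it, 6 gained it and 0 reversed.

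The counts of all genes called moved more. DESeq2 gave 379 genes for time in WT, 991 for time in Tob-KO, 33 for 15 min and 149 for 1 h in WT, 810 for 15 min, 558 for 1 h and 7 for 3 h in Tob-KO, 261 for the genotype over all time points and 35 for the genotype at 15 min. With no filter there were 20 for 15 min in WT and 1 for the interaction. With the 6 libraries compared there were 0 for 15 min in WT, 5 for 15 min in Tob-KO and 123 for 1 h in Tob-KO. With the choroid plexus score there were 14 for 15 min in WT and 49 for the genotype over all time points. With the striatum and septum score, chosen after the data were seen, there were 180 for 15 min in Tob-KO. Without Tob-KO replicate 3 at 15 min and at 3 h, likewise chosen, there were 22 for 15 min, 341 for 1 h and 120 for time in Tob-KO, and 18 for the genotype over all time points. Between naive, 1 h and 3 h mice of the 2 genotypes there were 7, 22 and 12 without the fold limit and 1, 0 and 1 with the quasi-likelihood test, which gave 0 at 15 min. The replicate block gave 1 gene between genotypes in naive mice, 6 at 15 min and 0 later, and 112 for 1 h in Tob-KO, and it ended the Gabrq call (adjusted p = 0.336), raised the adjusted p of Slc12a2 at 15 min to 0.336 and changed no other call of a member. Replicate numbers did not pair the libraries, since over the 28 pairs of groups, 0 had all correlations of same-numbered deviations over 0.1. The mean of such correlations ran from -0.214 to 0.245. Without 1 library in turn the counts ran from 29 to 145 for time in WT, 98 to 501 for time in Tob-KO, 1 to 15 and 0 to 11 for 15 min and 1 h in WT, and 40 to 817 and 0 to 250 for 15 min and 1 h in Tob-KO. They ran from 31 to 135 for the genotype over all time points, from 0 to 1 for the interaction, and, between genotypes, from 4 to 53 in naive mice, 30 to 252 at 15 min, 4 to 155 at 1 h and 3 to 16 at 3 h. The cause of these moves was not tested. With 1 library left out, a group of 2 shares the spread estimated over all groups. Counting error was 15.2% for Gabrq and 24.7% for Gabre at their mean read counts, and at most 3 reads of Gabra6 and 2 of Gabrp were counted in a library, so no difference was detectable at this depth for those 2.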
